A study of Homo sapiens with 10 samples.

Results

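RNA of the ATF4 amino acid stress response was compared between 2 fractions of HEK293 nuclei, a chromatin pellet extract (CPE) and a soluble nuclear extract (SNE). The set holds 10 genes, chosen by name from a gene table of 241080 loci: ATF4, DDIT3, ATF3, TRIB3, CHAC1, SESN2, DDIT4, ASNS, PHGDH and PSAT1. Each had 1 row under an identifier beginning with XLOC, with its symbol alone, and 9 of the 10 were tested, SESN2 being the exception. Under identifiers of any kind 11 rows name a gene of the set, and only the XLOC rows were used for its values. HEK293 is an established line that came from embryonic human kidney and grows attached, and the cells of CPE and SNE carry no other treatment in the labels. Stranded total RNA was sequenced from 3 CPE and 3 SNE samples, described as biological replicates. Another 2 CPE samples carry the label DRB, a compound that blocks elongation by RNA polymerase II, and 2 are labelled as mock; neither pair is analysed here. The tables hold 1 FPKM value (sequenced fragments per length of transcript and per size of library) for each fraction, pooled by the authors, so no replicate value, SD or interval could be given, and the depth of each library was unknown.

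ATF4 is a basic leucine zipper transcription factor whose messenger is held back by upstream open reading frames and is translated better when eIF2alpha is phosphorylated. The kinases that phosphorylate eIF2alpha sense amino acid shortage, unfolded protein in the endoplasmic reticulum, double-stranded RNA and haem shortage. ATF4 then raises transcription of genes for amino acid synthesis, transport and stress control, often through a C/EBP-ATF response element. The comparison sets each transcript's FPKM in the chromatin pellet beside its FPKM in the soluble extract, in cells grown without a stated stress.

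Promoters of 4 of these genes are shown: ASNS, CHAC1 and ATF3 because they hold the core letters of that element, and ATF4 as the gene of the factor itself. All are the 250 bases before a transcription start annotated by RefSeq on GRCh38.p14, 5′ to 3′ on the gene's strand, with matches to TGATGNAA or its reverse complement in capitals. ASNS lies on the minus strand at chr7:97872409-97872658, CHAC1 on the plus strand at chr15:40953221-40953470, ATF3 on the plus strand at chr1:212565157-212565406 and ATF4 on the plus strand at chr22:39520309-39520558.
ASNS: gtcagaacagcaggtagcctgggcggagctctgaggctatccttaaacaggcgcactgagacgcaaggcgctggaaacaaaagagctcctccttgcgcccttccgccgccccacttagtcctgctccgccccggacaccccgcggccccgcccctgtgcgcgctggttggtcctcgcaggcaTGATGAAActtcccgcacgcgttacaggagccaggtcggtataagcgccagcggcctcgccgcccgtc
CHAC1: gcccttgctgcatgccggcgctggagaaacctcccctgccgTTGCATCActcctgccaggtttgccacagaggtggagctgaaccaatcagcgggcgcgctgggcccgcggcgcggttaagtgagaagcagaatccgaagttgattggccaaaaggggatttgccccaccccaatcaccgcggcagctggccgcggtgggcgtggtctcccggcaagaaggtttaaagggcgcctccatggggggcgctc
ATF3: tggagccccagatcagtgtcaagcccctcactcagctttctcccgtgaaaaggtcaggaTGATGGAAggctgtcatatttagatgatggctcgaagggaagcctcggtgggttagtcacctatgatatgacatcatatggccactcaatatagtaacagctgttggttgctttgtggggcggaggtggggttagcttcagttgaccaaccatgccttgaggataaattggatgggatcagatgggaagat
ATF4: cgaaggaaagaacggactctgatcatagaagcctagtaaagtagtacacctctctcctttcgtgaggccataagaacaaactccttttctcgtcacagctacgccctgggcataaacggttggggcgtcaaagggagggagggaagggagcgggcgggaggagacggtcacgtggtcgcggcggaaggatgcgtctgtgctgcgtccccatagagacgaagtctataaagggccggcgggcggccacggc
The match begins 68 bases before the start in ASNS, 209 bases before it in CHAC1 (as the reverse complement) and 191 bases before it in ATF3, at the upstream one of that gene's 2 annotated starts. RefSeq promoters were found for all 10 genes, 16 windows in all, and 3 genes held TGATGNAA on either strand. Over all RefSeq genes 3.89% had it in such a window. CCAAT, searched on both strands, was present in 7 of the 10 genes, including 3 copies in PSAT1, and in 37.0% of all genes. TATAAA, also on both strands, was present in 3 of the 10, with a match 27 bases before the start of ATF4, and in 13.0% of all genes. These are matches of letters in a fixed window, and the absence of a match says nothing of binding elsewhere.

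Transcripts of the set were lower in the chromatin pellet. Of the 9 tested genes 8 were lower in CPE at the authors' q of at most 0.05, 0 were higher, and DDIT3 was not called. Of the 18271 named loci that were tested, 39.3% were lower in CPE and 1.83% were higher. Among the 12630 of them that carry 1 symbol and reach an FPKM of 1 in either fraction, as all 9 genes do, 48.1% were lower and 1.49% higher. These loci are not limited to protein-coding genes. Of measured protein-coding loci 72.8%, 62.3% and 35.2% were lower in the short, middle and long classes of gene length described below. The short class holds 5 of the 9 genes. The authors' log2 ratios of CPE over SNE had a median of -1.98 for the 9 genes and -1.36 for those 12630 loci (interquartile range -1.97 to -0.52). The 9 ratios ran from -2.49 in TRIB3 to -0.97 in DDIT3, a span of 2.87-fold, and 2.00-fold over the 8 called genes. FPKM values are shares of each fraction's own libraries, so a lower value in CPE does not say how many molecules each fraction held, and fewer cells with a transcript and less of it per cell cannot be told apart.

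**Figure D1:**
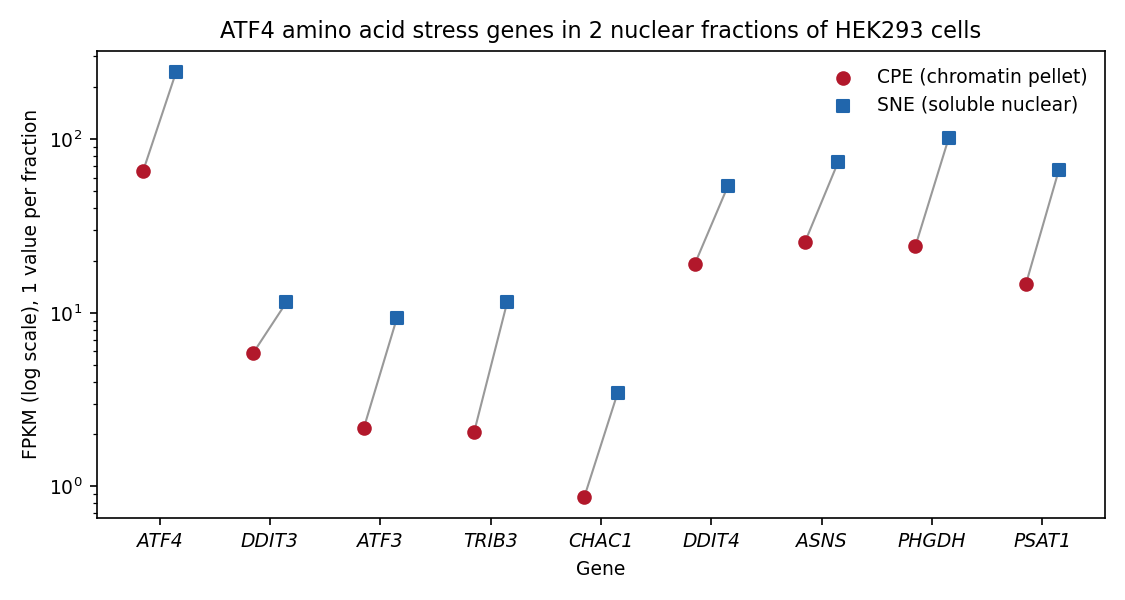
FPKM of each tested gene in CPE (circles) and SNE (squares) on a log axis, 1 value per fraction pooled by the authors, with a line joining the values of each gene. In each of the 9 genes the CPE value lies below the SNE value, and ATF4 is the most abundant in both fractions at 65.3 and 244 FPKM.

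The factor itself, ATF4, was the most abundant transcript of the set in both fractions. ATF4 had an FPKM of 65.3 in CPE and 244 in SNE in the authors' deposited table, at percentiles 95.9 and 97.4 of the 12630 loci in the same fraction. It was 3.73-fold lower in CPE (log2 ratio -1.90, q = 0.000706 in the authors' deposited table, the smallest q in that table). Its region on hg19 chromosome 22, 39895437 to 39928860, is a stretch of loci that Cuffdiff handled together, not the gene's own span. The table also holds rows for ATF4 pseudogenes: ATF4P3 had an FPKM of 2.20 in CPE and 9.22 in SNE and ATF4P4 had 0.957 in CPE and 4.63 in SNE in the authors' deposited table. Their log2 ratios of -2.07 and -2.27 (q = 0.000706 for both in the authors' deposited table) are close to that of ATF4, and no source used here says how reads were divided among the copies.

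The partner factors DDIT3 and ATF3 differed in call. DDIT3 encodes CHOP, a basic leucine zipper factor that acts with ATF4 in prolonged stress. DDIT3 had an FPKM of 5.89 in CPE and 11.5 in SNE in the authors' deposited table, 1.96-fold lower in CPE, without a call (log2 ratio -0.97, p = 0.126 and q = 0.435 in the authors' deposited table). Its ratio was at percentile 63.7 of the 12630 loci, the only one of the 9 above their median. ATF3, a stress-induced factor of the same family, had an FPKM of 2.16 in CPE and 9.29 in SNE in the authors' deposited table, a level 4.30-fold lower in CPE (log2 ratio -2.11, q = 0.000706 in the authors' deposited table). Whether the ratios of DDIT3 and ATF3 differ was not tested, since no replicate values were at hand.

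The region of DDIT3 holds other genes. This region (hg19 chromosome 12, 57853918 to 57914300) also holds MARS, the methionyl-tRNA synthetase gene, at an FPKM of 202 in CPE and 489.6 in SNE in the authors' deposited table (log2 ratio -1.27, q = 0.000706). It further holds the microRNA gene MIR616, listed at an FPKM of 14.0 in CPE and at 0 in SNE in the authors' deposited table, with too little data for a test. The part of these neighbours in the DDIT3 value was not tested.

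TRIB3 and CHAC1, which act downstream of ATF4 and CHOP, were among the less abundant transcripts. TRIB3 encodes a pseudokinase that binds AKT and ATF4. TRIB3 had an FPKM of 2.05 in CPE and 11.5 in SNE in the authors' deposited table. It was 5.61-fold lower in CPE (log2 ratio -2.49, q = 0.000706 in the authors' deposited table), the lowest ratio of the set, at percentile 7.53 of the 12630 loci. TRIB3 and DDIT3 had the same SNE value to 3 digits, but TRIB3 stood at percentile 27.8 and DDIT3 at percentile 51.6 of CPE values. CHAC1 encodes an enzyme that breaks down glutathione. CHAC1 had an FPKM of 0.873 in CPE and 3.44 in SNE in the authors' deposited table, being 3.94-fold lower in CPE (log2 ratio -1.98, q = 0.00194 in the authors' deposited table). CHAC1 was the least abundant of the 9 genes in both fractions and the only one under an FPKM of 1 in CPE.

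The inhibitors of mTORC1 in the set are DDIT4 and SESN2. DDIT4 encodes REDD1, which acts on mTORC1 through the TSC complex. DDIT4 had an FPKM of 19.1 in CPE and 53.7 in SNE in the authors' deposited table, 2.81-fold lower in CPE (log2 ratio -1.49, q = 0.000706 in the authors' deposited table). Its ratio was the closest to 0 among the 8 called genes, at percentile 45.3 of the 12630 loci. SESN2 encodes sestrin 2, a leucine sensor that binds GATOR2. SESN2 was listed at 0 in both fractions under a status that marks too much data, as were all 3543 loci of its region of 34.0 Mb on chromosome 1. This value is a failed estimate and says nothing of the level of SESN2. Its relatives SESN1 and SESN3, named here because SESN2 was not measured, had log2 ratios of -1.29 (q = 0.0724, not called) and -1.44 (q = 0.000706) in the authors' deposited table.

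The amino acid synthesis genes ASNS, PHGDH and PSAT1 were abundant and lower in CPE at the smallest q in the table, which 13655 loci share. Their ratios stood at percentiles 43.8, 21.6 and 16.4 of the 12630 loci, so that of ASNS was near the middle. ASNS encodes asparagine synthetase. ASNS had an FPKM of 25.7 in CPE and 74.1 in SNE in the authors' deposited table, 2.88-fold lower in CPE (log2 ratio -1.53). PHGDH encodes the first enzyme of serine synthesis from 3-phosphoglycerate and PSAT1 encodes the second. PHGDH had an FPKM of 24.3 in CPE and 101 in SNE in the authors' deposited table, 4.16-fold lower in CPE (log2 ratio -2.06). PSAT1 had an FPKM of 14.6 in CPE and 66.8 in SNE in the authors' deposited table, 4.57-fold lower in CPE (log2 ratio -2.19). ASNS was above PHGDH in CPE and below it in SNE. PSPH, which completes that route and is not one of the 10 genes, had a log2 ratio of -1.66 (q = 0.000706 in the authors' deposited table).

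PSAT1 was the only gene of the set whose isoform rows could be used. Its 3 isoforms summed to an FPKM of 14.6 in CPE and 66.8 in SNE, equal to the gene's row within 0.1%. The same held for 764 of 764 tested symbol loci of chromosome 9. Over all chromosomes it held for only 2361 of the 2947 tested symbol loci with isoform rows, and another 15324 had no such row. For DDIT4 and SESN2 the isoform sums did not match the gene row, and the other 7 genes had no isoform row under their locus identifier. Isoforms 2 and 3 of PSAT1 had FPKM values of 7.86 and 4.27 in CPE, against 36.7 and 25.3 in SNE, and were 4.67-fold and 5.94-fold lower in CPE (q = 0.000698 for both in the authors' deposited table). Isoform 1 had an FPKM of 2.51 in CPE and 4.75 in SNE in the authors' deposited table, with too little data for the authors' test. It made up 17.1% of the gene's FPKM in CPE and 7.12% in SNE, a difference with no test. The table also holds the pseudogene PSAT1P3, at an FPKM of 1.16 in CPE and 6.15 in SNE in the authors' deposited table (log2 ratio -2.41, q = 0.000706).

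The order of abundance was much the same in both fractions. In CPE it ran ATF4, ASNS, PHGDH, DDIT4, PSAT1, DDIT3, ATF3, TRIB3 and CHAC1. In SNE it ran ATF4, PHGDH, ASNS, PSAT1, DDIT4, TRIB3, DDIT3, ATF3 and CHAC1. Of the 36 pairs of genes 32 stood in the same order in CPE and SNE. The highest FPKM was 74.8 times the lowest in CPE and 70.7 times the lowest in SNE. With 1 value per fraction, it could not be said which neighbours in these orders differ beyond the spread between samples.

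**Figure D2:**
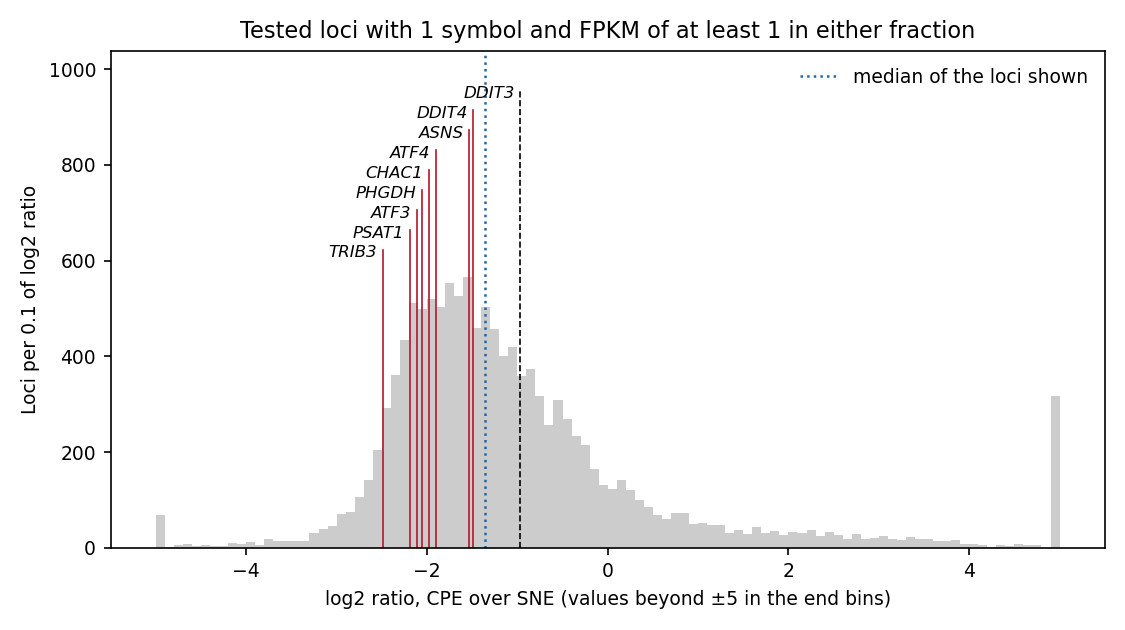
Number of loci by log2 ratio of CPE over SNE for the 12630 measured loci described in the text, which carry 1 symbol (grey), with the 9 genes as lines (solid where called, dashed where not). Lines for 8 genes stand at or below -1.49, left of the median of -1.36 (dotted), and DDIT3 stands at -0.97.

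Gene length, which the choice of the set did not use, was set beside the ratio. Measured protein-coding loci with a length in GENCODE 29 were put in 3 classes of equal size. The short class (up to 21.2 kb) had a median log2 ratio of -1.81, the middle class -1.47 and the long class (from 65.5 kb) -1.04. In these classes 72.8%, 62.3% and 35.2% of loci were lower in CPE. Of the 9 tested genes 5 lie in the short class (ATF4, DDIT3, CHAC1, DDIT4 and ASNS), with log2 ratios from -1.98 to -0.97. TRIB3, ATF3 and PSAT1 lie in the middle class, from -2.49 to -2.11, and PHGDH, at 95.8 kb, lies in the long one with -2.06. By GENCODE length all of the 4 longer genes thus had lower ratios than all of the 5 shorter ones, the reverse of the order of the class medians. Within those 4 the ratio did not fall with length, PHGDH being both the longest and the highest. This split describes 9 chosen genes and was not tested. It also rests on the model of TRIB3, which spans 34.7 kb while its whole region in the deposited table spans 17.0 kb. That length would place TRIB3 in the short class with the lowest ratio of that class, and the split would then not hold.

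Loci without a symbol in the regions of these genes had ratios on the other side of 0. The regions of the 9 tested genes hold 39 such loci, of which 38 were tested. Of these 5 were higher in CPE, 1 was lower and 32 were not called. Here 13.2% were higher in CPE, beside 9.45% higher and 0.630% lower over the 174660 unnamed loci tested in all. The log2 ratio was above 0 at 36 of the 38 loci, with a median of 2.40, below the median of 3.21 over the 160995 tested unnamed loci with FPKM above 0 in both fractions. A ratio above 0 is thus usual for unnamed loci, and nothing particular to these regions is read from it. All 38 ratios were above that of the gene whose region they share. Their FPKM ran from 0.576 to 9.20 in CPE and from 0.0466 to 10.5 in SNE. The table gives no position for each locus, so whether they lie in introns, antisense or outside the genes was not known.

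**Figure D3:**
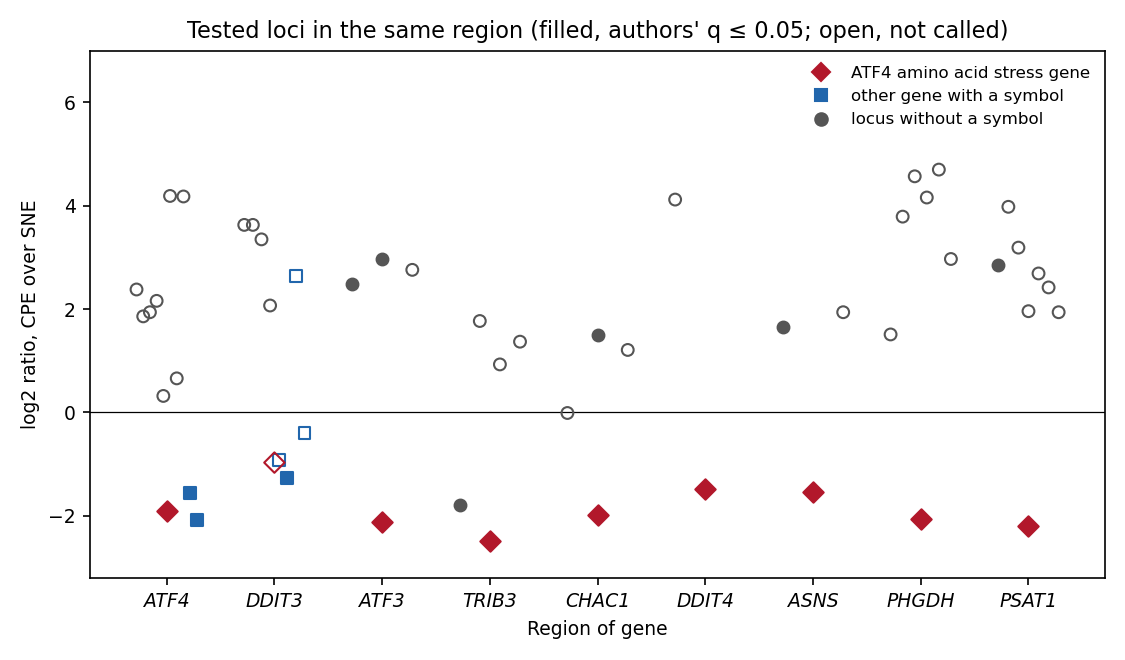
Log2 ratio of CPE over SNE for each tested locus in the region of each gene: the gene itself (diamond), other loci with a symbol (squares) and loci without one (circles), filled where the authors' q is at most 0.05. The diamonds all lie below 0, while 36 of the 38 circles lie above it; the filled circle below 0 is in the region of TRIB3.

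The called loci without a symbol shared a region with ATF3, ASNS, CHAC1, PSAT1 or TRIB3. In the ATF3 region 2 of 3 were higher in CPE: one had an FPKM of 4.08 in CPE and 0.726 in SNE (log2 ratio 2.49, q = 0.000706 in the authors' deposited table), and another had 0.768 in CPE and 0.0983 in SNE (log2 ratio 2.97, q = 0.0192 in the authors' deposited table). The higher of these is above ATF3 itself in CPE, where ATF3 had 2.16 FPKM. In the ASNS region 1 of 2 was higher in CPE, at 9.20 FPKM in CPE and 2.94 in SNE (log2 ratio 1.65, q = 0.0151 in the authors' deposited table). The CHAC1 region had 1 of 3, at 0.922 FPKM in CPE and 0.325 in SNE (log2 ratio 1.50, q = 0.00251 in the authors' deposited table), and the PSAT1 region 1 of 7, at 3.63 FPKM in CPE and 0.501 in SNE (log2 ratio 2.86, q = 0.00134 in the authors' deposited table).

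The TRIB3 region held the one locus without a symbol that was lower in CPE. It had an FPKM of 3.05 in CPE and 10.5 in SNE in the authors' deposited table (log2 ratio -1.79, q = 0.000706), near the levels of TRIB3 itself in both fractions. In the regions of ATF4, DDIT3, PHGDH and DDIT4 none of the 8, 4, 6 and 1 tested loci without a symbol was called. The 6 in the PHGDH region had log2 ratios between 1.51 and 4.70 and FPKM values between 3.86 and 7.85 in CPE, against 0.148 to 1.76 in SNE in the authors' deposited table. Other genes in the ATF4 region went the way of ATF4: MIEF1 and RPS19BP1 had log2 ratios of -1.56 (q = 0.0151) and -2.09 (q = 0.000706) in the authors' deposited table.

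Genes that act with or beside the set in amino acid stress were also lower in CPE or not called. Over 9 lists 131 genes were measured (tested, 1 symbol, and an FPKM of 1 or more in either fraction), of which 96 (73.3%) were lower in CPE, 0 were higher and 35 were not called, beside 48.1% lower and 1.49% higher over all 12630 such loci. Their median log2 ratio was -1.54, beside -1.36 over those loci. The 12630 loci are not limited to protein-coding genes, of which 72.8%, 62.3% and 35.2% were lower in the short, middle and long classes. All of these lists share the same libraries as the 10 genes, so they are not independent of them.

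Upstream of ATF4, 17 genes of the eIF2alpha kinases, eIF2, eIF2B and the eIF2alpha phosphatase were measured. Of these 13 (76.5%) were lower in CPE and 4 were not called, beside 48.1% lower over all measured loci. The median of this list, -1.37, was near the -1.36 over those loci. EIF2S2, the beta subunit of eIF2, had the lowest called log2 ratio at -2.74 (q = 0.000706), and EIF2S3, its gamma subunit and the most abundant member at 168 FPKM in CPE and 389.6 in SNE, had -1.21 (q = 0.0432) in the authors' deposited table. PPP1R15A, the stress-induced subunit that guides the eIF2alpha phosphatase, had the highest called ratio at -0.98 (q = 0.000706 in the authors' deposited table). The 4 kinases were named after their values were seen. EIF2AK1, EIF2AK3 and EIF2AK4 were lower in CPE, with log2 ratios of -1.37, -1.35 and -1.34, near the -1.36 over all measured loci. Their q values were 0.000706, 0.0413 and 0.00194 in the authors' deposited table. EIF2AK2 was not called at -0.90 (q = 0.0587 in the authors' deposited table).

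Among basic leucine zipper partners 4 of 8 measured genes were lower in CPE and 4 were not called (median -1.21), a share near the 48.1% over all measured loci. Of these 4 calls 2 were left at q of at most 0.01, and 1 with an FPKM of 1 required in both fractions. CEBPB, which dimerises with ATF4, had an FPKM of 0.371 in CPE and 3.47 in SNE in the authors' deposited table, a log2 ratio of -3.23 (q = 0.000706). JDP2 had the highest called ratio at -1.49 (q = 0.0406) and ATF2, the most abundant, was not called at -0.36 (q = 0.490) in the authors' deposited table. CEBPG, another partner of ATF4, named after its value was seen, had 5.88 FPKM in CPE and 1.86 in SNE, without a call (log2 ratio 1.66, q = 0.0578 in the authors' deposited table).

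Metabolic genes beyond the set were mostly lower in CPE. Of 11 measured serine, glycine, proline and one-carbon enzymes 8 (72.7%) were lower in CPE and 3 were not called (median -1.48). Over all measured loci 48.1% were lower, with a median of -1.36. SHMT2, the mitochondrial serine hydroxymethyltransferase, had 56.5 FPKM in CPE and 225 in SNE in the authors' deposited table (log2 ratio -2.00, q = 0.000706). PYCRL and TYMS, in proline and thymidylate synthesis, marked the lowest and highest called ratios at -2.03 (q = 0.0159) and -1.22 (q = 0.0483) in the authors' deposited table. Among 15 measured enzymes of other amino acid routes 13 (86.7%) were lower in CPE and 2 were not called (median -2.10). Called ratios ran from ASS1, argininosuccinate synthetase, at -2.42 to CBS, cystathionine beta-synthase, at -0.97 (q = 0.000706 for both in the authors' deposited table). ODC1, ornithine decarboxylase, was the most abundant of them at 45.3 FPKM in CPE and 219 in SNE (log2 ratio -2.27, q = 0.000706 in the authors' deposited table).

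Among amino acid transporters 9 of the 12 measured were lower in CPE and 3 were not called (median -1.63). SLC1A5, a glutamine carrier, had the lowest called log2 ratio at -2.55 (q = 0.000706) and SLC38A1 the highest at -1.16 (q = 0.0232) in the authors' deposited table. SLC38A2, a neutral amino acid carrier and the most abundant of them, had 108 FPKM in CPE and 157 in SNE, without a call (log2 ratio -0.54, q = 0.128 in the authors' deposited table). Among 12 measured tRNA synthetase and tRNA export genes 11 (91.7%) were lower in CPE and XPOT was not called. The median of this list, -1.33, was near the -1.36 over all measured loci, although its share of calls was above 48.1%. Called ratios ran from SARS at -2.03 (q = 0.000706) to IARS at -1.01 (q = 0.0399) in the authors' deposited table.

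**Figure D4:**
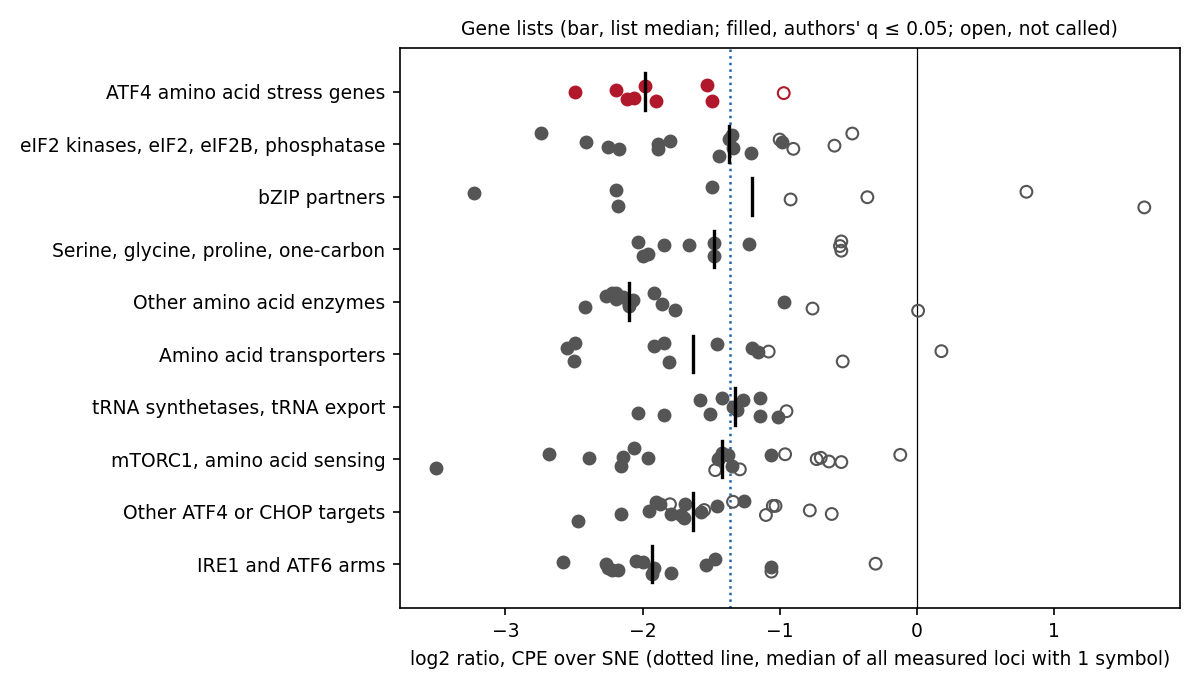
Log2 ratio of CPE over SNE for each measured gene of the set (top row) and of 9 related lists, filled where the authors' q is at most 0.05 and open where not; bars are list medians and the dotted line is the median of all measured loci with 1 symbol (-1.36). Filled points all lie below 0, and the median of the top row is -1.98.

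Of 21 measured genes of mTORC1 and amino acid sensing 13 (61.9%) were lower in CPE and 8 were not called (median -1.42), beside 48.1% and -1.36 over all measured loci. AKT1S1, an inhibitory subunit of mTORC1, had 0.895 FPKM in CPE and 10.2 in SNE in the authors' deposited table (log2 ratio -3.51, q = 0.00517). SEC13, a GATOR2 subunit, was the most abundant (log2 ratio -2.06, q = 0.000706) and MLST8 had the highest called ratio at -1.06, with q = 0.00361 in the authors' deposited table. Among 20 measured other stress-induced targets of ATF4 or CHOP 12 (60.0%) were lower in CPE and 8 were not called (median -1.63), with CDKN1A at -2.47, the mitochondrial chaperone HSPA9 at -1.95 and TXNIP at -1.26 (each at q = 0.000706 in the authors' deposited table).

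The other arms of the unfolded protein response, IRE1 and ATF6, do not act through eIF2alpha. Of 15 measured genes there 13 (86.7%) were lower in CPE and 2 were not called (median -1.93), beside 48.1% and -1.36 over all measured loci. SDF2L1 and the chaperone CALR had log2 ratios of -2.58 and -2.22 (q = 0.000706 for both), and ATF6, the membrane-bound factor of its arm, had -1.06 (q = 0.0375) in the authors' deposited table.

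RNAs taken as markers of either fraction divided by it, apart from TUG1. NEAT1 and MALAT1, nuclear body RNAs, had log2 ratios of 3.44 and 1.45, and GAPDH and TUBB had -2.34 each (q = 0.000706 for all 4 in the authors' deposited table). TUG1, also taken as a chromatin RNA, was not called at -0.49 (q = 0.491 in the authors' deposited table). KCNQ1OT1, a further chromatin RNA, was under an FPKM of 1 in both, at 0.545 in CPE and 0.0301 in SNE (log2 ratio 4.18, q = 0.000706). Of the other markers of processed messenger RNA, EEF1A1 had too much data for a test and ACTB had no row with its symbol alone. The line was checked by markers: LIN28B had 9.54 FPKM in CPE and 32.3 in SNE, while PAX2 and NEFM, also taken as HEK293 markers, were under an FPKM of 1 in both. Of markers of other cell types COL1A1 had 0.958 FPKM in CPE and 1.45 in SNE, ALB had 0.373 in CPE and was listed at 0 in SNE, PTPRC had 0.00306 in CPE and was listed at 0 in SNE, and HBB was listed at 0 in both. ALB was the one of these that the authors' deposited table calls, higher in CPE at q = 0.000706, and its part in the results was not tested.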

How the data were processed

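RNA of CPE and SNE of HEK293 nuclei was measured by stranded total RNA-seq, per the labels. Reads were processed with TopHat2 and Cuffdiff on hg19, per the submitters' processing notes; their versions, the annotation and the scaling are not given in the sources used here. Both deposited tables hold 1 FPKM value per fraction, a log2 ratio of CPE over SNE, and a p-value and q-value from the authors' Cuffdiff test, per the file headers; the deposited test statistic, an unscaled score, was not used. No per-sample values were present, so no test across replicates was run and the depth is unknown.

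A locus was called where its status was OK and its q did not exceed 0.05, as adjusted by the authors over 192931 tested loci; 13655 loci share the smallest q, 0.000706, and its p is 5e-05. These calls matched the table's significance mark with 0 differences. The members, the gene lists and the rule for named genes were chosen with earlier results of these data known. From each list the rule named the most abundant measured member (mean FPKM) and the called members of lowest and highest ratio. Others are marked, except PSPH and XPOT, which the rule did not pick. Markers of the fractions, the line and other cell types were all named. Region starts are counted from 1. Lengths came from GENCODE 29, promoters from RefSeq. Counting was tested on simulated data. Python 3.11.15, pandas 2.3.3, NumPy 2.4.6 and matplotlib 3.10.9 were used.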

Additional observations from a re-analysis of the deposited data

How the results depend on the processing

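The 8 calls lower in CPE and 0 higher among the 9 tested genes were unchanged at q of at most 0.01 and with an absolute log2 ratio of at least 1. A pseudocount of 0.1 or 1 cannot turn a sign and leaves q as it is. Among XLOC rows 0 members stand in rows naming several genes. These alternatives thus could not change the count. A minimum FPKM of 1 in both fractions left 7, without CHAC1. The median log2 ratio of the 9 genes was -1.90 with a pseudocount of 0.1 and -1.70 with one of 1. Centring on the median ratio of named loci with FPKM of at least 1 in both fractions (-1.33) left all 8 called genes below 0 and moved the median to -0.65. DDIT3, which was not called, then stood at 0.37. No centred ratio was tested, so these are signs and not calls. After centring, 82 of the 96 called pathway genes lay below 0 and 14 above it. Named ones above 0 were EIF2S3 (0.12), PPP1R15A (0.36), TYMS (0.12), CBS (0.36), SLC38A1 (0.17), MARS (0.06), IARS (0.33), MLST8 (0.27), TXNIP (0.07) and ATF6 (0.27). The pathway count lower in CPE was between 80 and 103 under the other alternatives, but single lists moved more. At q of at most 0.01 the serine and one-carbon list had 5 calls in place of 8 and the leucine zipper list 2 in place of 4, and the leucine zipper list had 1 with FPKM of at least 1 in both fractions. Of the 11 called tRNA synthetase and export genes 6 lay below 0 after centring and 5 above it. The next counts cover the 42 genes that are tested members or were picked by the rule. At q of at most 0.01, 7 lost their call (EIF2S3, JDP2, PYCRL, TYMS, SLC38A1, IARS and ATF6). With FPKM of at least 1 in both fractions 4 lost it (CHAC1, CEBPB, JDP2 and AKT1S1), and with an absolute log2 ratio of at least 1, 2 did (PPP1R15A and CBS). Genes named for other reasons, such as EIF2AK3 (q = 0.0413) and MIEF1 (q = 0.0151), are not in these counts. Of the 5 loci without a symbol called higher in CPE, 3 remained at q of at most 0.01 and 1 with FPKM of at least 1 in both fractions, alternatives chosen after seeing the data. No paired analysis was possible because the tables hold 1 pooled value per fraction, and for the same reason no replicate could be left out.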
